A study of Mus musculus with 8 samples.

Results

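The Fanconi and homologous recombination repair genes were followed in HC11 mouse mammary epithelial cells through lactogenic differentiation and in embryonic stem cells (ESC). They are 35 genes, taken by symbol from the 24062 rows of the expression table, and all 35 were found there. RNA of 8 libraries was sequenced, 2 for each of 4 groups. N stands for normal HC11 cells, kept in medium with 10% FBS, EGF at 20 ng/ml and insulin at 5 µg/ml. P stands for primed cells, whose medium for 48 h held insulin, the glucocorticoid (GC) hydrocortisone at 1 µg/ml and serum at 5%, but no EGF. PRL cells then had 5 µg/ml prolactin in that medium for a further 72 h. The HC11 cells are labelled COMMA-1D Mouse (Balb/c) and the ESC, of the line R1, as 129*1 * 129S1. The labels give all as wild type, and the genotype of the lines was not tested here. The ESC grew on mitomycin-C treated embryonic fibroblasts, which a replating step was meant to leave behind. On the fibroblasts the ESC medium was DMEM with 10% FBS, leukemia inhibitory factor and inhibitors of MEK and GSK. After replating, DMEM with 10% FBS is given. EGF, serum, GC and time all change between N and P and cannot be told apart, and prolactin and time both change between P and PRL. HC11 and R1 are 1 line each, and the lines differ in strain, tissue and medium.

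When a replication fork meets an interstrand crosslink, the Fanconi core complex ubiquitinates the FANCD2 and FANCI proteins, and nucleases then cut around the lesion. The break that this leaves is repaired from the sister chromatid by homologous recombination. In that pathway the DNA end is resected, a protein filament is built on the single strand with the help of BRCA2, and the strand then invades the intact copy. These steps take place in S and G2 phase, and inherited loss of BRCA1, BRCA2 or PALB2 is known for breast cancer risk in humans. The 35 genes were arranged by the step in which their proteins act, from the core complex to resolution.

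Values are FPKM, fragments per exon length and library size, as the authors deposited them for each library. They rest on 11938392 to 33916913 fragments per library, a 2.84-fold range. Differences were tested by limma on log2(FPKM + 1) across the 13210 genes with at least 1 FPKM in at least 2 libraries, a filter that all 35 genes passed. A gene was called where the log2 fold change was 1 or more in size and the Benjamini-Hochberg adjusted p was under 0.001. Since 1 is added before the log, a fold change on this scale is smaller than the ratio of FPKM where levels are low, so ratios of mean FPKM are given as well. Nothing in the labels tells whether the replicates were separate cultures. The p-values therefore take in only the spread between libraries, which may be technical. The 7 pluripotency markers stood at or below 0.682 FPKM in every HC11 library, and Krt5, Csn2, Wap and Pip were listed at 0 in both ESC libraries. Krt5 was the only 1 of 6 epithelial markers at 0 there, and the 6 summed to 91.2 and 93.8 FPKM in ESC. ESC replicate 1 stands apart in fibroblast markers: 11 of 12 were higher there than in ESC replicate 2, with sums of 271 and 44.4 FPKM, against 506 and 522 FPKM in N, 1274 and 1174 in P and 346 and 305 in PRL. Thy1 did not pass 0.0252 FPKM in HC11 libraries. In bulk RNA, fewer cells of a type and less RNA per cell cannot be told apart.

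Primed cells had less RNA of 16 of these genes, among them Fanca and Fancd2 of the Fanconi pathway, Brca1 and Bard1, and Rad51ap1 and Rad54l of strand invasion. In P against N, 16 of the 35 genes (45.7%) were called down and 0 up by limma, while 4.10% of all 13210 tested genes were called down and 4.54% up. At an unadjusted p under 0.05, 25 of the 35 genes were lower in P and 1, Rad52, was higher, beside 25.1% of all tested genes lower and 28.1% higher. Neil3, Rad51ap1, Fancd2, Bard1, Fanca, Rad54l, Brca1, Exo1 and Ube2t had the largest log2 fold changes, from −2.22 to −1.76. Fanci, Rad54b, Blm, Brip1, Mre11a, Fancb and Xrcc2 followed, from −1.58 to −1.04. The ratio of mean FPKM in N over that in P ran from 2.46 in Mre11a to 8.80 in Fancd2. The median log2 fold change of the 35 genes was −0.77, beside 0.02 over all tested genes. Both P libraries lay below both N libraries in 30 of the 35 genes, which holds for 38.1% of all tested genes. The calls lean on the libraries of N, P and PRL. Without 1 library of N or P, 4 or 5 of the 35 genes were called down, 11 without 1 of PRL and 16 without 1 of ESC. Fanca alone was called in each of these fits, and over them no limma adjusted p of the 16 genes passed 0.00879. At an adjusted p under 0.05 with the same fold, 16 genes were called with all libraries, beside 5.23% of tested genes. At that threshold 15 genes were called without P replicate 1 and 16 without any other library, an alternative added after the data were seen.

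**Figure D1:**
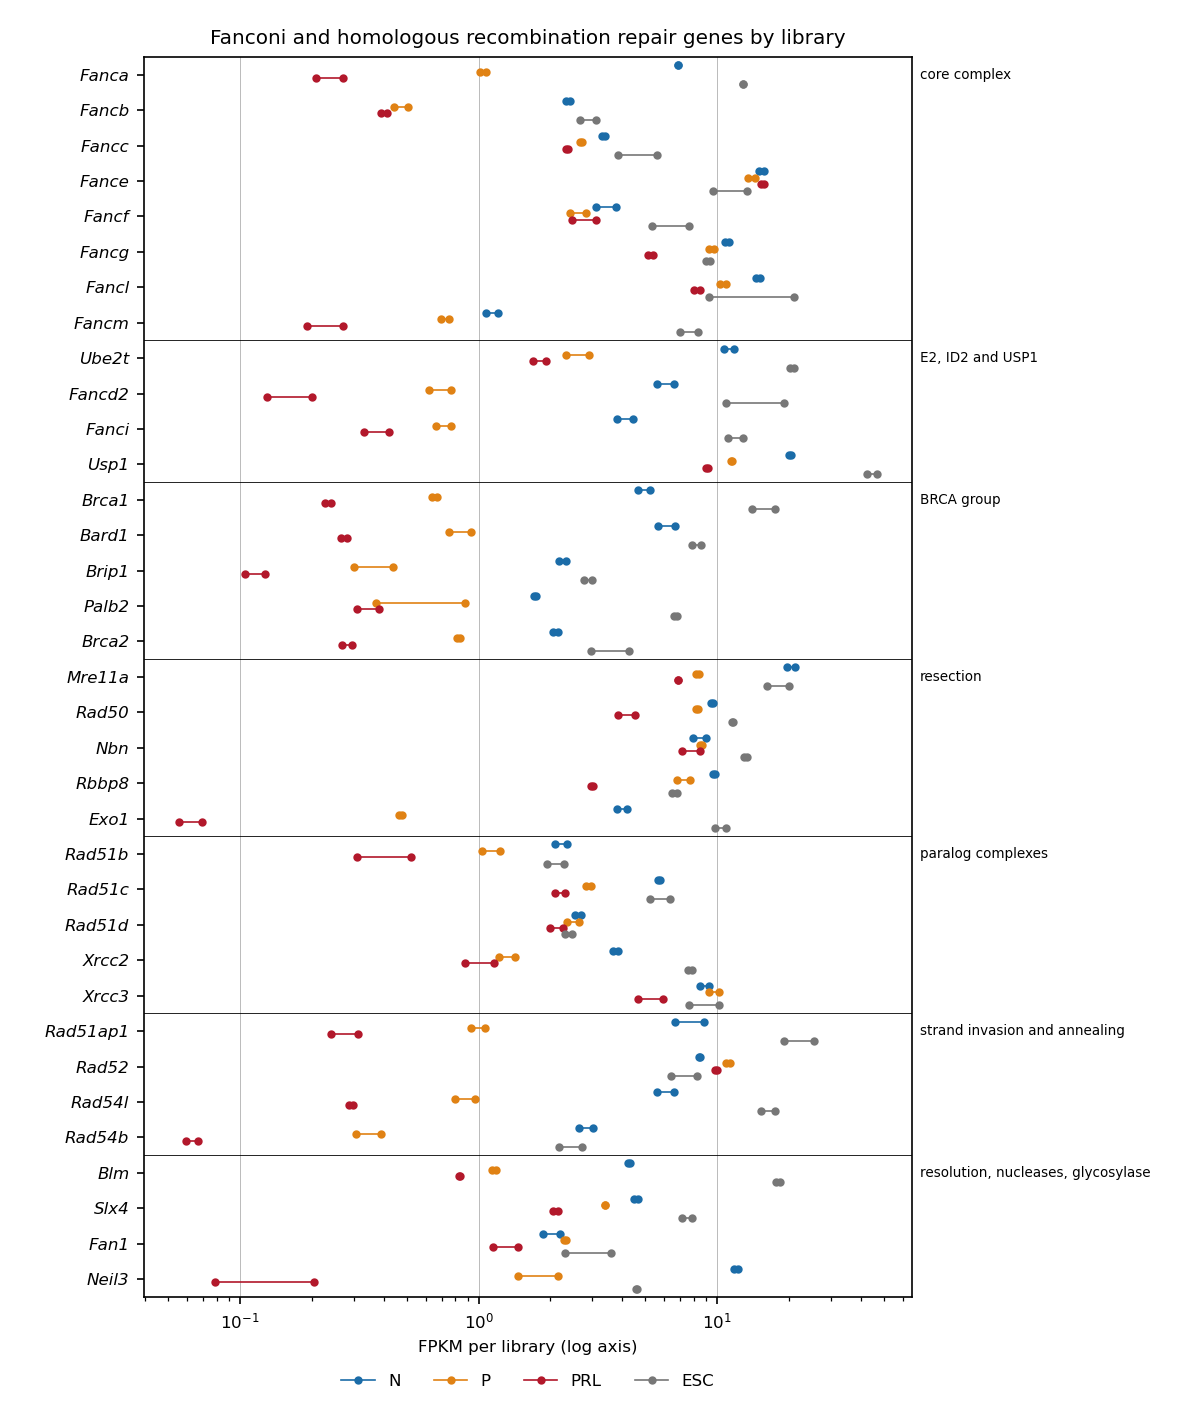
FPKM of each of the 35 genes in each library on a log axis, with the 2 libraries of a group joined by a line, arranged by role. In N all 35 genes had a mean of at least 1 FPKM, while 13 in P and 17 in PRL were below it, down to 0.0555 FPKM for Exo1 in PRL.

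The stretch before the start site of members that moved and members that did not is shown here, since 16 genes fell together. RefSeq promoters of GRCm38.p6 were at hand for 26 of the 35 genes, each from 250 bases before to 50 after the start site. They were searched on both strands for the E2F core, TTCCCGC or TTGGCGC or TTCGCGC or TTGCCGC, for the cell cycle homology region (CHR), TTTGAA, and for CCAAT. An E2F core stood in 14 of the 26 genes (53.8%), against 19.5% of 9696 tested genes and 10.9% of 27025 genes in the promoter set. It was in 8 of 12 genes called down in P and in 6 of 14 others, among them Fancg, Rad52 and Fancf. CCAAT stood in 17 of 26 (65.4%), against 43.2% of tested genes, and the CHR in Bard1 and Rad51b (7.69%), against 13.9%. A match is a description of letters and not a bound site. The 200 bases before the start site follow, 5′ to 3′ on the strand of the gene, in lower case with matches in capitals. Neil3, Rad51ap1, Fanca and Ube2t had the largest falls among genes with at least 5 FPKM in N whose stretch lies outside exons but for at most 30 bases, and Fance and Xrcc3 the smallest changes. Fancb and Brca2 were added after their matches were seen, as further holders of an E2F core.
Neil3: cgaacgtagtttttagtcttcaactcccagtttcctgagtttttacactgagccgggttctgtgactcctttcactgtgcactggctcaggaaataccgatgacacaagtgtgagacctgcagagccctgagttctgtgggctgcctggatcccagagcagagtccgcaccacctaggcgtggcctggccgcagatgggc
Rad51ap1: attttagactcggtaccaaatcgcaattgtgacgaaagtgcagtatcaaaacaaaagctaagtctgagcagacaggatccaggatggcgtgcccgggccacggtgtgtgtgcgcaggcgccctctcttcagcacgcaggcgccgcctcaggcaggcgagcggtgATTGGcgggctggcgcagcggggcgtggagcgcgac
Fanca: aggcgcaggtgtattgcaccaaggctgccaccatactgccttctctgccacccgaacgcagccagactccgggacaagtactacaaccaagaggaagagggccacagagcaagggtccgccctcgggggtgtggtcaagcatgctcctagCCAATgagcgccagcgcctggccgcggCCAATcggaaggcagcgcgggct
Ube2t: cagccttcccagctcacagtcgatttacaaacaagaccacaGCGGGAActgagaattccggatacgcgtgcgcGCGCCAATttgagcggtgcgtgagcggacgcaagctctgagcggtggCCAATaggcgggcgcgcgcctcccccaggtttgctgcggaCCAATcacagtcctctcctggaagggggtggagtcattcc
Fancb: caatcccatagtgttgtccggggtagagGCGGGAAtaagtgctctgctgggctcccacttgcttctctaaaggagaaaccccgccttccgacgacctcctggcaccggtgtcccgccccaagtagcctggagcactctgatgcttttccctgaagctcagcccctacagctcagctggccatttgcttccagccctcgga
Brca2: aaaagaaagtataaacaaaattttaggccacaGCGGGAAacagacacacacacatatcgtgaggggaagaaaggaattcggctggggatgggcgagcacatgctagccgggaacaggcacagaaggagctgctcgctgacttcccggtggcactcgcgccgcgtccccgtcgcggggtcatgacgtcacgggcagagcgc
Fance: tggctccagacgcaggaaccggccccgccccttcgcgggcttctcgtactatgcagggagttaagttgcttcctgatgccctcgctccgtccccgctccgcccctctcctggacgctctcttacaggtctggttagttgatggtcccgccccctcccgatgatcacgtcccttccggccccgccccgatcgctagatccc
Xrcc3: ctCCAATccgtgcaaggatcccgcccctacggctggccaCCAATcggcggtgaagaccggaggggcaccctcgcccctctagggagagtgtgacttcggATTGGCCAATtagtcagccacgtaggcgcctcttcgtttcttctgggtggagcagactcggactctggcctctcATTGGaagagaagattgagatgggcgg

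In GRCm38 these stretches are chr8:53639066-53639265 on the minus strand for Neil3, chr6:126939588-126939787 on the minus strand for Rad51ap1 and chr8:123318577-123318776 on the minus strand for Fanca. Those of Ube2t and Fancb are chr1:134962365-134962564 on the plus strand and chrX:164980392-164980591 on the plus strand, and that of Brca2 is chr5:150522421-150522620 on the plus strand. Those of Fance and Xrcc3 are chr17:28313330-28313529 on the plus strand and chr12:111813880-111814079 on the minus strand. In Ube2t the capitals mark 2 E2F cores on the reverse strand, the later of which shares letters with the first of 3 CCAAT boxes. Fancb and Brca2 show 1 reverse E2F core each, Fanca 2 CCAAT boxes and Rad51ap1 1 reverse CCAAT box, while its E2F core lies outside the stretch. No match stands in the stretches of Neil3, which fell most, and of Fance. Xrcc3, which did not fall in P, shows 5 CCAAT boxes over both strands.

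The core complex moved unevenly. Of its 8 genes, 2 were called down in P against N, beside 4.10% of all tested genes. Fanca, a scaffold subunit on chromosome 8 from 123268300 to 123318576, had 6.87 and 6.87 FPKM in N, 1.02 and 1.07 FPKM in P and 0.269 and 0.208 FPKM in PRL. Fancb, which joins the ligase subunit in the catalytic module, had 2.41 and 2.32 FPKM in N, 0.507 and 0.440 in P and 0.413 and 0.389 in PRL. Mean FPKM was 6.56-fold lower in P than in N for Fanca (log2 fold change −1.94, SE 0.08, limma adjusted p = 1.63e-05) and 4.99-fold lower for Fancb (log2 fold change −1.19, SE 0.09, limma adjusted p = 0.000140). In both genes the groups of P and N lay far apart next to the gap between replicates. Fancl, the E3 ligase itself, had 15.1 and 14.5 FPKM in N, 10.9 and 10.3 FPKM in P and 8.03 and 8.50 FPKM in PRL (log2 fold change −0.45, limma adjusted p = 0.289 for P against N). Fance, which binds FANCD2, had 15.7 and 15.0 FPKM in N, 13.5 and 14.5 in P and 15.8 and 15.3 in PRL. Its P libraries lay just below those of N (log2 fold change −0.12, limma adjusted p = 0.522). Fancc, the partner of Fance and Fancf in the complex, had 3.38 and 3.29 FPKM in N, 2.73 and 2.67 FPKM in P and 2.33 and 2.38 FPKM in PRL. None of these 3 passed the test at priming. The fit pools the spread of all 4 groups, and Fancl differed widely between the ESC replicates. Its SD was 8.23 FPKM in ESC, beside 0.390 in N and 0.397 in P (n = 2). The SE of 0.31 for Fancl takes in that gap. Both its P libraries lay below both N libraries, as in 38.1% of all tested genes. Fancf had 3.12 and 3.77 FPKM in N, 2.41 and 2.81 in P and 2.46 and 3.10 in PRL, with PRL libraries that overlapped P. Fancg, which binds the FANCA protein, had 10.8 and 11.2 FPKM in N, 9.70 and 9.24 FPKM in P and 5.39 and 5.12 FPKM in PRL, and its lower level was in PRL. Fancm, the translocase that holds the complex on DNA, had 1.08 and 1.21 FPKM in N, 0.750 and 0.695 in P and 0.191 and 0.269 in PRL, the lowest level of the complex in N. The summed FPKM of the 8 genes was 58.3 in N, 41.6 in P and 35.1 in PRL.

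Of the E2 enzyme, the substrates of the complex and Usp1, 3 of 4 genes were called down in P, beside 4.10% of all tested genes. Ube2t, the E2 that works with FANCL, had 11.7 and 10.7 FPKM in N, 2.91 and 2.33 FPKM in P and 1.92 and 1.69 FPKM in PRL (log2 fold change −1.76, SE 0.11, limma adjusted p = 5.08e-05 for P against N). Fancd2 had 6.58 and 5.60 FPKM in N, 0.619 and 0.765 in P and 0.200 and 0.130 in PRL (log2 fold change −2.06, SE 0.24, limma adjusted p = 0.000676). Fanci, which pairs with FANCD2, had 4.44 and 3.81 FPKM in N, 0.767 and 0.660 FPKM in P and 0.421 and 0.332 FPKM in PRL (log2 fold change −1.58, SE 0.12, limma adjusted p = 0.000100). All P libraries of these 3 called genes lay below all N libraries, as in 38.1% of all tested genes. The P means were 4.28-fold lower in Ube2t, 8.80-fold in Fancd2 and 5.78-fold in Fanci. Usp1, the protease that removes the ubiquitin again, had 19.98 and 20.4 FPKM in N, 11.4 and 11.6 in P and 9.13 and 8.97 in PRL. Its P mean was 1.76-fold lower than that of N, short of the fold threshold (log2 fold change −0.77, SE 0.07, limma adjusted p = 0.000275). The summed FPKM of the 4 genes was 41.6 in N, 15.5 in P and 11.4 in PRL. Usp1 made up most of the level that was left.

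Brca1 and its partners were low in P and PRL. Brca1, the E3 ligase that promotes resection and recombination, lies on chromosome 11 from 101488764 to 101551955 and had 4.64 and 5.23 FPKM in N, 0.639 and 0.666 FPKM in P and 0.241 and 0.226 FPKM in PRL. Bard1, its partner in that ligase, had 6.69 and 5.67 FPKM in N, 0.749 and 0.925 in P and 0.266 and 0.281 in PRL. Brip1, a helicase bound to BRCA1, had 2.32 and 2.17 FPKM in N, 0.300 and 0.440 FPKM in P and 0.105 and 0.128 FPKM in PRL. These 3 genes were called down in P against N (log2 fold changes −1.84, −1.96 and −1.24, limma adjusted p of 6.44e-05, 3.85e-05 and 0.000107). Palb2, the bridge between BRCA1 and BRCA2, had 1.71 and 1.74 FPKM in N, 0.876 and 0.371 in P and 0.309 and 0.381 in PRL. Its P replicates differed 2.36-fold, the widest gap of any of the 35 genes in P. Brca2, a mediator of strand invasion on chromosome 5 from 150522630 to 150570329, had 2.05 and 2.15 FPKM in N, 0.835 and 0.811 FPKM in P and 0.267 and 0.294 FPKM in PRL. Both were lower in P than in N in every library without reaching the thresholds (log2 fold change −0.77, limma adjusted p = 0.00664 for Palb2, log2 fold change −0.77, limma adjusted p = 0.00466 for Brca2). The group had the largest relative drop of the 7 roles at priming, from the ratio of sums. Its summed FPKM was 17.2 in N, 3.31 in P and 1.25 in PRL, 5.20-fold lower in P than in N. By median log2 fold change the order differed. The genes of strand invasion and annealing (−1.71) and those of the E2, substrates and Usp1 (−1.67) fell more than this group (−1.24).

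The genes of end resection split within 1 complex. Mre11a, the nuclease, had 21.2 and 19.6 FPKM in N, 8.17 and 8.42 in P and 6.87 and 6.85 in PRL (log2 fold change −1.20, SE 0.11, limma adjusted p = 0.000243 for P against N). Rad50, the ATPase that holds it, had 9.41 and 9.64 FPKM in N, 8.15 and 8.35 FPKM in P and 4.54 and 3.84 FPKM in PRL (log2 fold change −0.19, limma adjusted p = 0.134). Nbn, the third subunit, had 8.95 and 7.94 FPKM in N, 8.63 and 8.50 in P and 7.12 and 8.46 in PRL (log2 fold change 0.02, limma adjusted p = 0.919). Mre11a was thus called down at priming, Rad50 was lower mainly in PRL, and the Nbn libraries of P lay within those of N. Rbbp8, whose protein CtIP starts resection with this complex, had 9.78 and 9.62 FPKM in N, 7.72 and 6.81 FPKM in P and 3.01 and 2.95 FPKM in PRL (log2 fold change −0.37, limma adjusted p = 0.0126 for P against N). Exo1, the nuclease of long-range resection, had 3.81 and 4.18 FPKM in N, 0.477 and 0.465 in P and 0.0555 and 0.0696 in PRL (log2 fold change −1.76, SE 0.10, limma adjusted p = 3.27e-05). Its PRL values rest on 8 and 13 fragments, with 95% Poisson limits of 0.0239 to 0.109 and 0.0371 to 0.119 FPKM that cover counting error only. The summed FPKM of the 5 genes was 52.0 in N, 32.8 in P and 21.9 in PRL.

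Of the 5 genes of the paralog complexes, Rad51b, Rad51c, Rad51d, Xrcc2 and Xrcc3, 1 was called down in P, beside 4.10% of all tested genes. Their summed FPKM was 23.1 in N, 17.6 in P and 11.1 in PRL, 1.32-fold lower in P than in N, the smallest ratio of sums among the 7 roles. By median log2 fold change, the core complex (−0.30) and resection (−0.37) changed less than the paralog complexes (−0.59). Xrcc2 had 3.85 and 3.65 FPKM in N, 1.22 and 1.42 FPKM in P and 0.878 and 1.16 FPKM in PRL (log2 fold change −1.04, SE 0.11, limma adjusted p = 0.000425 for P against N). Rad51c, which takes part in both paralog complexes, had 5.64 and 5.77 FPKM in N, 2.97 and 2.82 in P and 2.096 and 2.30 in PRL (log2 fold change −0.78, limma adjusted p = 0.00153), and Rad51b had 2.09 and 2.35 FPKM in N, 1.23 and 1.03 FPKM in P and 0.309 and 0.520 FPKM in PRL (log2 fold change −0.59, limma adjusted p = 0.00716). All 3 belong to the complex that also holds RAD51D, and their P libraries lay below their N libraries. Rad51d itself had 2.53 and 2.69 FPKM in N, 2.64 and 2.34 in P and 2.26 and 2.00 in PRL, with overlapping groups. Xrcc3, the partner of RAD51C in the second complex, had 9.24 and 8.45 FPKM in N, 9.29 and 10.2 FPKM in P and 5.92 and 4.65 FPKM in PRL (log2 fold change 0.12, limma adjusted p = 0.573). It was lower in PRL than in either other HC11 group.

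Among the genes of strand invasion and annealing, 3 of 4 fell and Rad52 did not. Rad51ap1, which stimulates strand invasion, lies on chromosome 6 from 126923050 to 126939587 and had 6.66 and 8.78 FPKM in N, 1.07 and 0.930 in P and 0.312 and 0.241 in PRL (log2 fold change −2.12, SE 0.17, limma adjusted p = 0.000150 for P against N). Rad54l, a translocase of strand invasion, had 6.58 and 5.62 FPKM in N, 0.962 and 0.793 FPKM in P and 0.298 and 0.288 FPKM in PRL (log2 fold change −1.92, SE 0.11, limma adjusted p = 4.58e-05). Rad54b, its relative, had 2.63 and 3.01 FPKM in N, 0.390 and 0.306 in P and 0.0595 and 0.0669 in PRL (log2 fold change −1.50, SE 0.11, limma adjusted p = 0.000100). P means were 7.73-, 6.95- and 8.10-fold lower than N means in these 3 genes. Rad52, which anneals single strands and in mammals backs up BRCA2, had 8.47 and 8.39 FPKM in N, 11.3 and 10.9 FPKM in P and 9.96 and 9.76 FPKM in PRL. It was higher in both P libraries than in both N libraries, below the fold threshold (log2 fold change 0.36, SE 0.11, limma adjusted p = 0.0381), and it was the only 1 of the 35 genes with a positive change at an adjusted p under 0.05, which 24.0% of tested genes had. In PRL it lay between P and N.

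Of the genes of resolution and unhooking, Blm and Neil3 were called down in P. Neil3, a glycosylase that unhooks crosslinks at converged forks without cutting the backbone, lies on chromosome 8 from 53586867 to 53639065 and had 11.8 and 12.2 FPKM in N, 2.15 and 1.46 in P and 0.203 and 0.0785 in PRL (log2 fold change −2.22, SE 0.14, limma adjusted p = 4.98e-05 for P against N). Blm, the helicase that dissolves double Holliday junctions, had 4.25 and 4.33 FPKM in N, 1.19 and 1.13 FPKM in P and 0.826 and 0.835 FPKM in PRL (log2 fold change −1.29, SE 0.08, limma adjusted p = 5.72e-05). P means were 6.64-fold lower than N means for Neil3 and 3.69-fold lower for Blm. Slx4, the scaffold of structure-specific nucleases, had 4.64 and 4.50 FPKM in N, 3.39 and 3.40 in P and 2.04 and 2.14 in PRL (log2 fold change −0.34, limma adjusted p = 0.0179). Fan1, a nuclease that binds ubiquitinated FANCD2, had 1.86 and 2.20 FPKM in N, 2.33 and 2.28 FPKM in P and 1.46 and 1.15 FPKM in PRL (log2 fold change 0.13, limma adjusted p = 0.595). Slx4 was lower in both P libraries, and Fan1 was higher in both, without passing the thresholds.

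**Figure D2:**
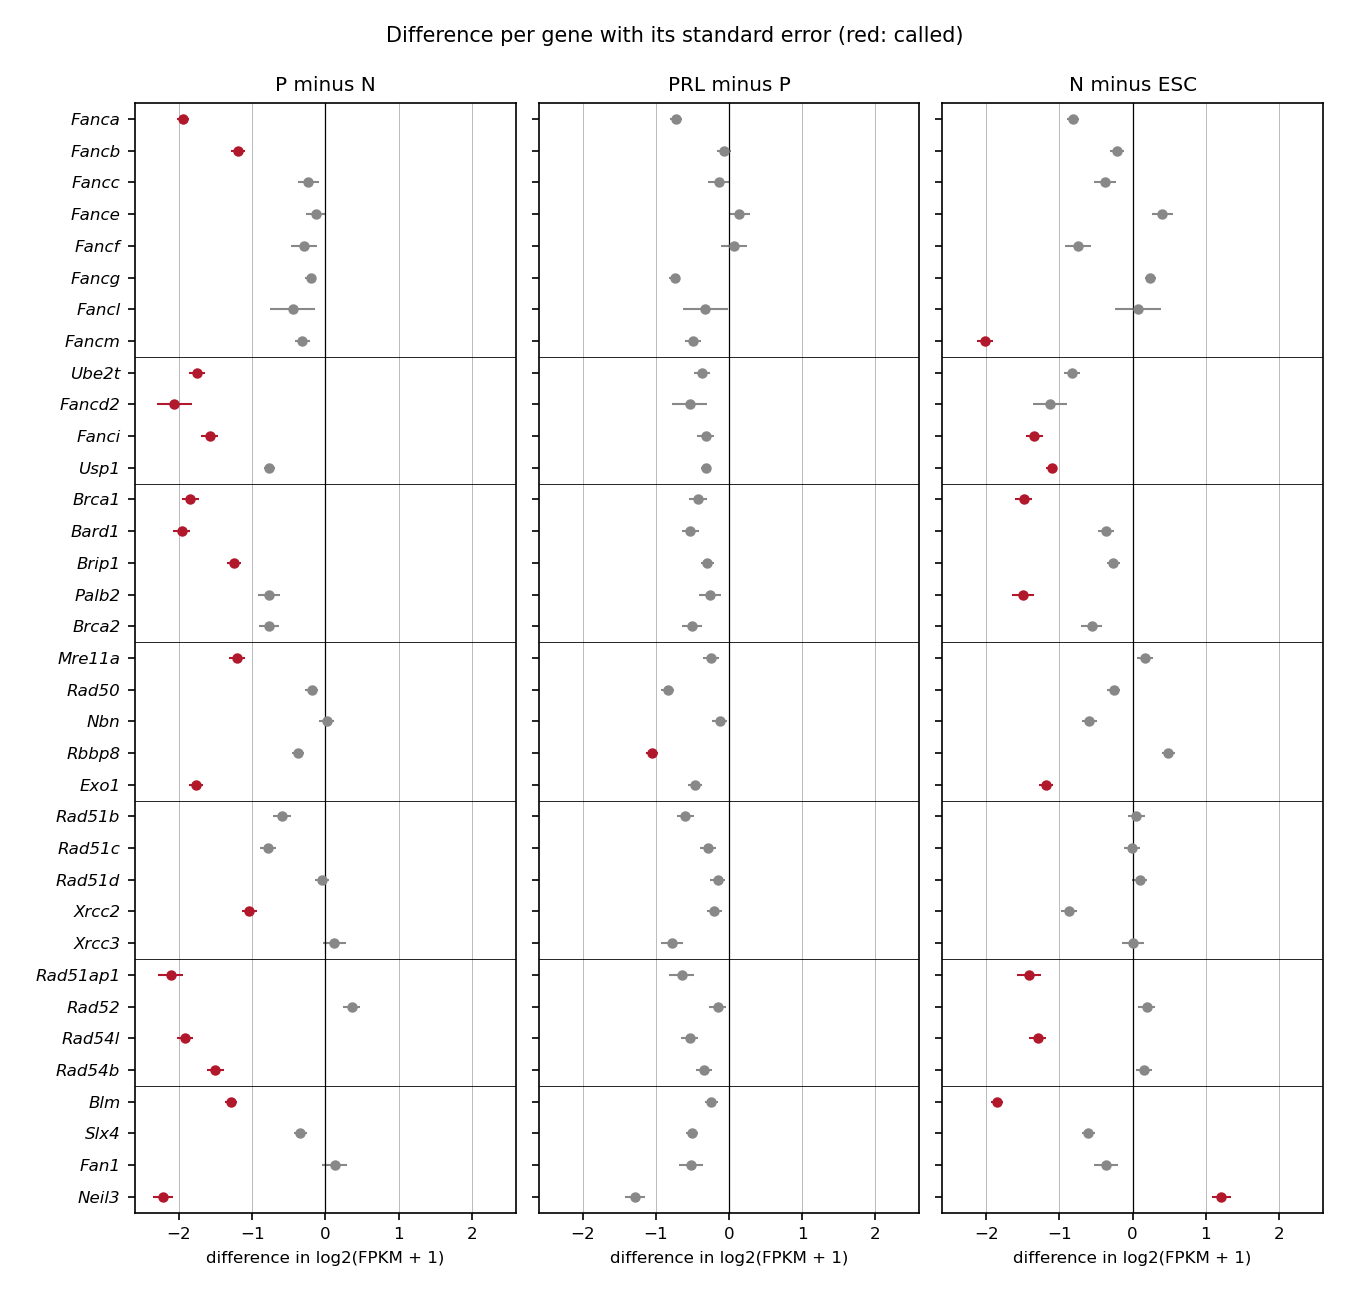
Difference in mean log2(FPKM + 1) with its standard error for each gene, in P minus N, PRL minus P and N minus ESC, in the order of the roles. Red points passed the thresholds: 16 below 0 in P minus N, Rbbp8 in PRL minus P, and 9 below and Neil3 above 0 in N minus ESC.

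After prolactin treatment 1 gene passed the thresholds. In PRL against P, Rbbp8 was called down (log2 fold change −1.05, SE 0.09, limma adjusted p = 0.000637) and 0 genes up, beside 1.44% of all tested genes down and 0.689% up. Its PRL mean was 2.44-fold lower than that of P. Neil3 missed the threshold on the adjusted p (log2 fold change −1.29, SE 0.14, limma adjusted p = 0.00120), although its PRL mean was 12.8-fold lower than that of P, or 23.0-fold without PRL replicate 1. Its PRL values rest on 12 and 6 fragments, with 95% Poisson limits of 0.105 to 0.355 and 0.0288 to 0.171 FPKM. At an adjusted p under 0.05 with the same fold, Rbbp8 and Neil3 made up the 2 genes called, beside 3.93% of tested genes. At an unadjusted p under 0.05, 0 of the 35 genes were higher and 23 lower in PRL than in P by limma, beside 11% and 34.9% of tested genes. Both PRL libraries lay below both P libraries in 32 of the 35 genes, beside 57.3% of all tested genes. The table as a whole is shifted in this comparison, with a median log2 fold change of −0.15 over tested genes and −0.36 over the 35. With median ratio scaling these medians were 0.00 and −0.31, with quantile normalization 0.00 and −0.17, and the call of Rbbp8 was lost (log2 fold changes −0.85 and −0.73, limma adjusted p = 0.00159 and 0.00422). Over all tested genes, 32.4% of the calls were up as deposited, 63.6% with median ratio scaling and 57.9% with quantile normalization. The call of Rbbp8 was also lost without any 1 of the 6 HC11 libraries, with limma adjusted p up to 0.0120.

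The changes at priming and after prolactin were set against each other in 1 contrast, PRL minus P less P minus N, at an adjusted p under 0.05. The P libraries enter both changes, with opposite sign. In 17 of the 35 genes the second change was more positive than the first, beside 11.7% of tested genes. They are the 16 genes called down in P and Usp1, with differences from 0.45 in Usp1 to 1.53 in Fancd2 on the log2 scale. Fancb was the plainest case, with 0.413 and 0.389 FPKM in PRL, against 0.507 and 0.440 in P, a gap of 1.18-fold between means (log2 fold change −0.07, limma adjusted p = 0.612). This rests on the log2(FPKM + 1) scale, on which a gene near 0 in P has little room to fall. With a pseudocount of 0.1 the contrast held for 15 of the 17, and Neil3 turned to −0.32 (limma adjusted p = 0.674). By the ratio of means, Neil3 was 6.64-fold lower in P than in N and 12.8-fold lower in PRL than in P. In 4 genes the second change was the more negative, beside 23.0% of tested genes: Xrcc3 (−0.90), Rbbp8 (−0.68), Rad50 (−0.65) and Fancg (−0.55). With median ratio scaling or quantile normalization 0 of these 4 passed, and 18 and 20 genes had the more positive second change. The count of 21 genes was 10 without P replicate 1, 9 without P replicate 2 and 13 without PRL replicate 2.

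**Figure D3:**
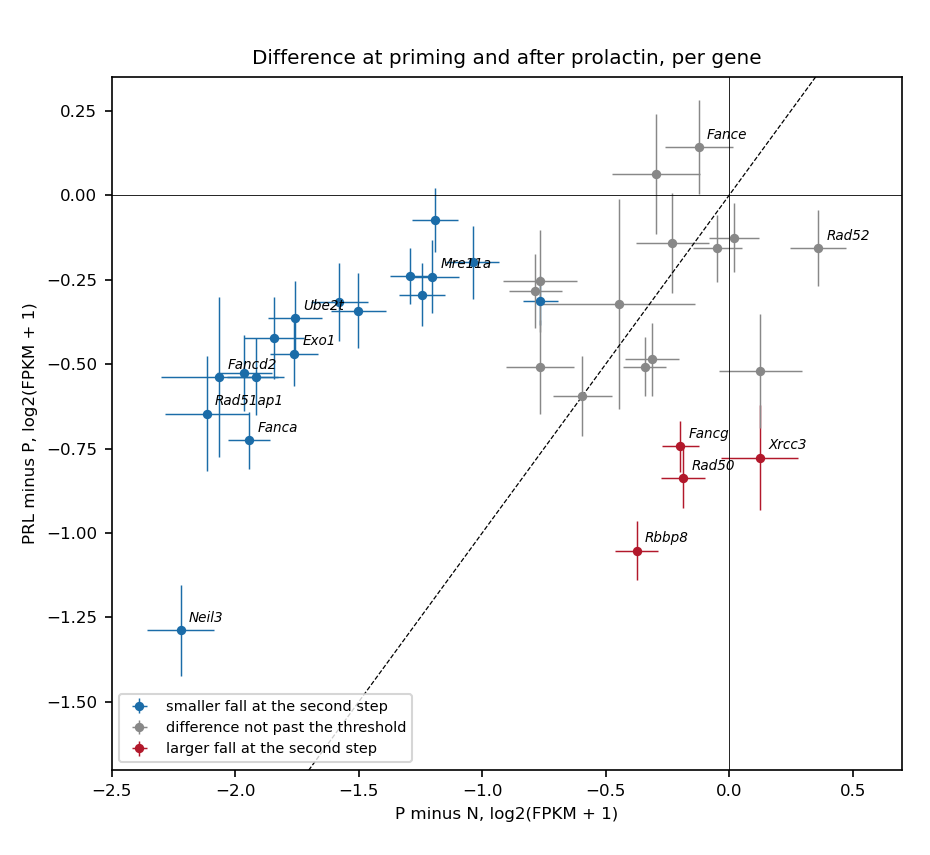
Difference in mean log2(FPKM + 1) in P minus N (x axis) and PRL minus P (y axis) for each of the 35 genes, with standard errors, the dashed line marking equal change. On this scale, blue points (17 genes) had a smaller and red points (Fancg, Rad50, Rbbp8 and Xrcc3) a larger fall at the second step at an adjusted p under 0.05. With a pseudocount of 0.1, 15 of the blue points held and Neil3 turned to −0.32. By the ratio of means Neil3 fell 6.64-fold at the first step and 12.8-fold at the second. After median ratio scaling 0 red points remained.

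Over the whole course, 22 of the 35 genes (62.9%) were called down in PRL against N and 0 up by limma, beside 8.0% and 5.47% of all tested genes. The 22 include Usp1, Brca2, Rad50, Rbbp8, Rad51b and Rad51c, which were not called in P against N. At an unadjusted p under 0.05, 0 of the 35 genes were higher and 29 lower in PRL than in N, beside 21.1% and 37.7% of tested genes. Neil3 had the widest gap, with a PRL mean 85.0-fold below that of N (log2 fold change −3.51, SE 0.14, limma adjusted p = 4.44e-06). Without PRL replicate 1 that ratio was 152, and the PRL replicates of Neil3 differed 2.59-fold. Exo1 was 63.9-fold lower, Rad54b 44.6-fold, Fancd2 37.0-fold and Fanca 28.8-fold. At the other end Fance, Nbn, Rad51d and Rad52 had ratios of N over PRL from 0.855 to 1.22. The order of the genes by level changed with these falls. Mre11a, Usp1, Fance, Fancl and Neil3 led in N, with means of 20.4 ± 1.10, 20.2 ± 0.298, 15.3 ± 0.498, 14.8 ± 0.390 and 12.0 ± 0.306 FPKM (SD, n = 2). In PRL, Fance, Rad52, Usp1, Fancl and Nbn led, with 15.5 ± 0.334, 9.86 ± 0.136, 9.05 ± 0.112, 8.27 ± 0.334 and 7.79 ± 0.946 FPKM (SD, n = 2). The values of Mre11a and Usp1 in N overlapped, as did those of Fance and Fancl in N, while Fance stood clear of Rad52 in PRL. Without 1 library of N the calls numbered 14, and they numbered 15 without PRL replicate 1 and 13 without PRL replicate 2. With median ratio scaling they numbered 19 and with quantile normalization 16. Over all tested genes, 40.6% of the calls in PRL against N were up as deposited, 54.3% with median ratio scaling and 52.2% with quantile normalization.

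N cells had less RNA of 9 of these genes than ESC and more of Neil3. In N against ESC, 9 of the 35 genes (25.7%) were called down, beside 20.7% of all tested genes, and 1 up, beside 15.6%. The share called down was thus near that of the table. Fancm had the largest gap, with 1.08 and 1.21 FPKM in N, against 8.34 and 7.01 in ESC (log2 fold change −2.02, SE 0.11, limma adjusted p = 5.41e-06). Blm had 4.25 and 4.33 FPKM in N, against 17.7 and 18.4 in ESC (log2 fold change −1.85, SE 0.08, limma adjusted p = 2.46e-06). Palb2 had 1.71 and 1.74 FPKM in N, against 6.58 and 6.77 in ESC (log2 fold change −1.49, SE 0.15, limma adjusted p = 0.000109). By their means Fancm was thus 6.73-fold, Blm 4.21-fold and Palb2 3.87-fold lower in N than in ESC. Brca1, with 4.64 and 5.23 FPKM in N, against 14.1 and 17.4 in ESC, was 3.19-fold lower. Usp1, with 19.98 and 20.4 FPKM in N, against 42.6 and 46.8 in ESC, was 2.21-fold lower. Rad51ap1, Fanci, Rad54l and Exo1 were the other genes called down, 2.59- to 2.91-fold by their means. Neil3 went the other way, with 11.8 and 12.2 FPKM in N, against 4.62 and 4.57 in ESC (log2 fold change 1.21, SE 0.14, limma adjusted p = 0.000175). Rad54b had 2.63 and 3.01 FPKM in N, against 2.18 and 2.71 in ESC, and Mre11a had 21.2 and 19.6 FPKM in N, against 16.2 and 20.05 in ESC (log2 fold change 0.15, limma adjusted p = 0.244 and log2 fold change 0.17, limma adjusted p = 0.192). These 2 genes, both called down in P, had overlapping levels in N and ESC.

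In 3 members the ESC libraries differed over 1.5-fold. Fancl had 9.27 and 20.9 FPKM in ESC replicates 1 and 2, a 2.26-fold gap and the widest of the 35 genes in ESC, and its difference between N and ESC took either sign with the library left out (log2 fold change −0.47 without ESC replicate 1, 0.07 with both). Fancd2 had 6.58 and 5.60 FPKM in N, against 10.9 and 19.2 in ESC, and it was not called (log2 fold change −1.13, limma adjusted p = 0.00406). Fan1 was the third. The sign of the difference between N and ESC also turned for Rad51b and Rad51c without ESC replicate 1 and for Xrcc3 without ESC replicate 2. It turned as well for Rad51b without N replicate 2 and for Rad51c and Xrcc3 without N replicate 1. With all libraries the log2 fold changes of Rad51b, Rad51c and Xrcc3 were small, at 0.052, −0.012 and 0.0053. Without ESC replicate 1, the library with the higher fibroblast markers, 10 genes were called down in N, and 9 without ESC replicate 2. Neil3 was called in both fits and lost its call without either N library (limma adjusted p up to 0.00238). When N and ESC were fitted alone, 2 genes were called down and 0 up.

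**Figure D4:**
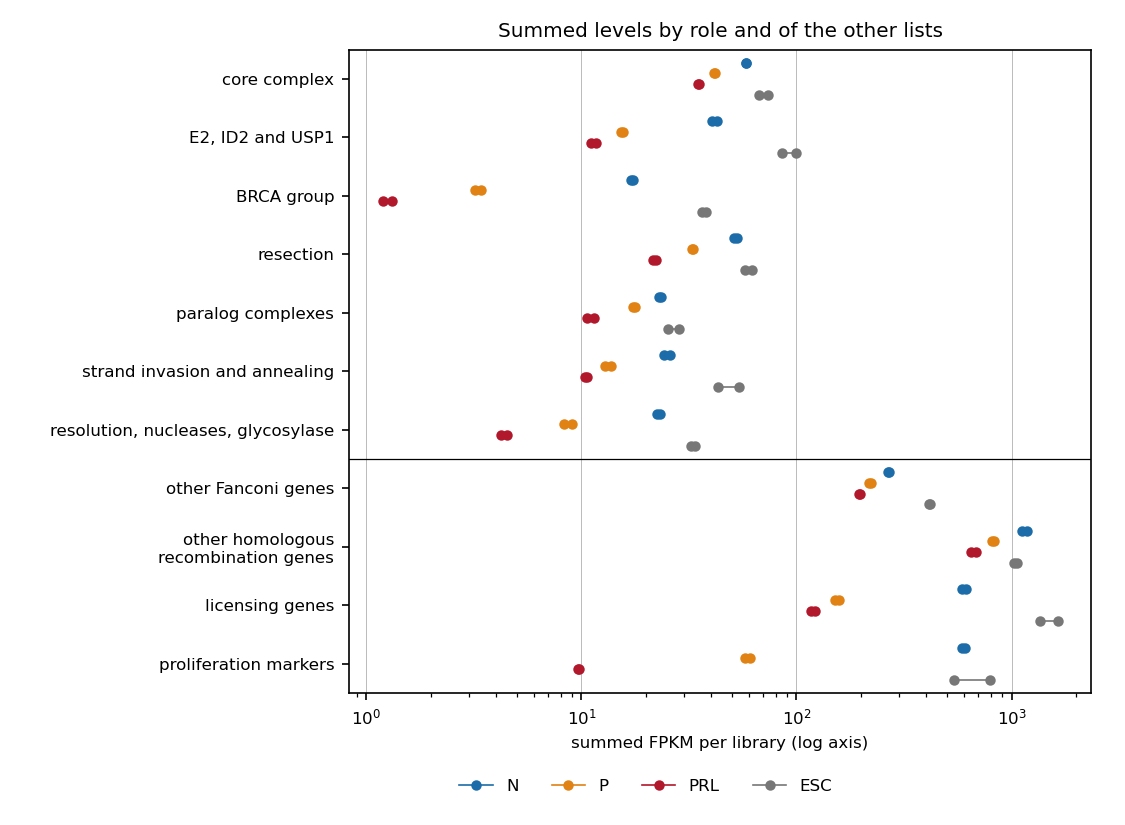
Summed FPKM of the genes of each role, and of 4 further lists, in each library on a log axis, with the 2 libraries of a group joined by a line. From N over P to PRL the BRCA group stood at 17.2, 3.31 and 1.25 FPKM and the proliferation markers at 599, 59.3 and 9.66 FPKM, while the other Fanconi genes stood at 268, 220 and 197 FPKM.

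Genes outside the 35, from wider lists drawn around the same pathways, were counted next. The Fanconi list also holds Hes1, and the recombination list also holds Xrcc1 and Ctc1, which are not core members of these pathways. Of 23 other Fanconi genes 19 were tested, and 2 were called down in P against N, beside 4.10% of all tested genes. Eme1, a partner of the MUS81 nuclease, had 0.561 and 0.620 FPKM in P, against 5.23 and 5.47 in N (log2 fold change −1.997, SE 0.10, limma adjusted p = 2.32e-05). Apitd1, which pairs with Stra13 in the FANCM complex, had 4.93 and 5.20 FPKM in P, against 13.5 and 12.5 in N (log2 fold change −1.21, SE 0.09, limma adjusted p = 9.83e-05). Stra13 itself had 80.0 and 81.5 FPKM in P, against 87.0 and 88.6 in N (log2 fold change −0.12, limma adjusted p = 0.348). Rfwd3, a ligase that acts on RPA, had 24.8 and 25.8 FPKM in P, against 41.5 and 40.6 in N, below the fold threshold. The median log2 fold change of the 19 genes was −0.12.

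Of 38 other homologous recombination genes, 9 were called down in P and 0 up, beside 4.10% and 4.54% of all tested genes. Their median log2 fold change was −0.38. At an unadjusted p under 0.05, 20 of the 38 were lower in P and 1 was higher, beside 25.1% and 28.1% of all tested genes. Fignl1, an AAA ATPase that acts in recombination, had 1.51 and 1.37 FPKM in P, against 11.1 and 11.7 in N (log2 fold change −2.35, SE 0.12, limma adjusted p = 2.76e-05). Rad18 had 1.79 and 1.81 FPKM in P, against 10.7 and 10.3 in N (log2 fold change −2.04, SE 0.12, limma adjusted p = 5.02e-05), and Parpbp, an inhibitor of recombination, had 0.356 and 0.403 FPKM in P, against 4.28 and 4.31 in N. Mms22l, which acts with TONSL at stalled forks, had 2.11 and 2.07 FPKM in P, against 8.73 and 8.68 in N. These 4 genes were named for the largest falls among those called, and all their P libraries lay below all N libraries, as in 38.1% of tested genes. Shfm1, the small partner of BRCA2, had 307 and 291 FPKM in P, against 371 and 399.6 in N, and Swi5 117 and 114 FPKM in P, against 176 and 182 in N, and neither was called. In the other repair pathways, 0 of 11 end joining genes, 0 of 7 mismatch repair genes and 2 of 23 genes of base and nucleotide excision were called down in P (Lig1 and Parp1), and 0 up by limma. Of all tested genes 4.10% were called down and 4.54% up, so counts this low are near the share of the table. At an unadjusted p under 0.05, 5 end joining, 4 mismatch repair and 8 excision genes were lower in P, and 2, 1 and 5 were higher, beside the 25.1% and 28.1% of all tested genes. The median log2 fold changes were −0.14, −0.56 and −0.01.

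Markers of dividing cells moved with the falls. All 10 proliferation markers were called down in P against N, with a median log2 fold change of −3.11. Their summed FPKM was 607 and 591 in N, 57.8 and 60.8 in P, 9.70 and 9.61 in PRL and 538 and 790 in ESC. Mki67 had 3.14 and 3.41 FPKM in P, against 25.1 and 25.6 in N, and none of the 10 was at 0 in any library. All 7 licensing genes, which load the replicative helicase, were called down as well, with sums of 617 and 587 FPKM in N, 152 and 158 in P, 116 and 123 in PRL and 1351 and 1636 in ESC. Cell type markers moved with the groups too. The 6 epithelial markers summed to 4123 and 4056 FPKM in N, 1506 and 1548 in P and 1147 and 1184 in PRL. Krt5 and Krt14 were called down in P, and none of the 6 was at 0 in all HC11 libraries. The list was split in P against N, with 3 of the 6 lower and 3 higher and a median log2 fold change of −0.10. Of the 12 fibroblast markers 3 (Postn, Dcn and Lum) were called up in P and 0 down, beside 4.54% and 4.10% of all tested genes. By log2 fold change 6 of the 12 were lower in P and 6 higher, from −2.76 to 3.09. At an adjusted p under 0.05 with the same fold, 3 were down and 4 up by limma. The part of any of these changes in the levels of the repair genes was not tested. The sum of the 35 genes was 240 FPKM in N, 133 in P, 95.5 in PRL and 368 in ESC. It was 1.81-fold lower in P than in N, where the proliferation markers were 10.1-fold and the licensing genes 3.89-fold lower. The sum weighs genes by level and holds the 19 genes not called in P. In the 16 called genes the ratio of means ran from 2.46 to 8.80. By median log2 fold change the 35 genes stood at −0.77, the proliferation markers at −3.11 and the licensing genes at −1.93.

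Some values can hold reads of neighbouring genes, since the strand setting of the counting is not given in the sources used here. The exon length recovered behind the FPKM exceeded that of GENCODE vM21 in Rad51d (7705 against 3714 bp) and Rad54b (7051 against 5782 bp). Whether these levels hold reads from outside the genes was not tested. In GENCODE vM21, 35.8% of the exon bases of Rad54b lie in exons of Fsbp on the same strand. On the opposite strand, Fancc shares 16.4% of its exon bases with Gm16133, Fanci 16.0% with Polg, Rad54l 15.4% with Lrrc41, Fancf 15.0% with Gas2, Fancl 13.7% with Vrk2 and Fanca 10.5% with Zfp276. The fragments behind a value ran from 6 for Neil3 in PRL replicate 2 to 2235 for Usp1 in ESC replicate 1, so differences among members below 1 FPKM in PRL are held less firmly than those in N.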

How the data were processed

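Ribosomal RNA was depleted and poly(A) RNA selected, and paired-end libraries were sequenced. According to the study's methods, the authors trimmed reads with Trimmomatic, used TopHat 2.1.0 with up to 2 mismatches for alignment to the genome build GRCm38/mm10, counted reads with featureCounts of Subread 1.5.0 and derived FPKM, which the deposited table gives as a column for each library. The annotation and strand setting of the counting are not given in the sources used here. The 4 tables of the authors' own comparisons (fold changes and p-values) were not used, and 0 columns of per-sample values were left out. Fragment numbers were recovered from the steps between low FPKM values.

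The deposited FPKM were tested as log2(FPKM + 1) with limma 3.58.1 under R 4.3.3 (intensity trend and robust variance moderation, with statmod 1.5.0) in a fit over all 8 libraries, with 4 residual degrees of freedom, and p-values were adjusted over all 13210 genes. Sums, intervals, promoter matches and plots were made in Python 3.11.15 (pandas 2.3.3, numpy 2.4.6, scipy 1.17.1, matplotlib 3.10.9). All 35 members were named, and of each further list up to 4 genes called in P with the largest change and up to 2 others with the highest FPKM in N, beside markers of cell types and of proliferation. Promoters were printed for the 4 largest falls and the 2 smallest changes in P among members with at least 5 FPKM in N, restricted after the data were seen to stretches with at most 30 exon bases. The members and lists were chosen with earlier results of these data known, and 1 gene of a further list is not reported here. The alternatives were pseudocounts of 0.1 and 0.5, other filters on low values, an adjusted p under 0.05, quantile normalization, median ratio scaling, fits on the groups compared alone, a block for the replicate number and leaving out each library. The fit was tested on simulated data. Promoter sequences came from RefSeq and exon overlaps from GENCODE vM21.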

Additional observations from a re-analysis of the deposited data

How the results depend on the processing

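The count of 16 genes called down in P against N stayed between 13 and 16 over the settings that kept all 8 libraries. Leaving out each library in turn gave 4 to 16 genes, or 15 to 16 at an adjusted p under 0.05, a combination chosen after the data were seen. Down calls in PRL against N numbered 22, from 16 with quantile normalization to 25 with a pseudocount of 0.1, and 13 to 22 over leaving out each library, or 22 to 23 at an adjusted p under 0.05. In PRL against P the 1 call became 3 with a pseudocount of 0.1, 2 with a pseudocount of 0.5, 2 with at least 5 FPKM in 2 libraries and 2 at an adjusted p under 0.05. It became 0 without the filter on low values, with median ratio scaling, with quantile normalization and with a replicate block, and 0 to 2 without 1 library (1 to 2 at an adjusted p under 0.05). The 9 down calls in N against ESC became 2 when only those libraries were fitted, and 7 to 10 without 1 library. The up call of Neil3 became 0 there, 0 with a pseudocount of 0.1, and 0 to 1 without 1 library. Up calls stayed at 0 in the other comparisons under every setting run. The 21 genes of the step contrast became 18 to 24, and 9 to 24 without 1 library.

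Same-numbered libraries did not deviate together (correlations of −0.03 to 0.08 between groups), so the numbers were not taken to pair them. With a replicate block, 9, 14, 0 and 22 genes were called down in N against ESC, P against N, PRL against P and PRL against N, and the step contrast held 21.

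In the step contrast Neil3, with a difference of 0.93, turned to −0.32 with a pseudocount of 0.1. In the pairwise comparisons directions turned only where the gene was not called in that comparison, and the cause was not tested. With median ratio scaling, log2 fold changes in PRL against P became 0.0027 for Fancb, 0.036 for Fancc, 0.096 for Nbn, 0.016 for Rad51d and 0.071 for Rad52. With quantile normalization they became 0.15 for Fancb, 0.19 for Fancc, 0.11 for Nbn, 0.17 for Rad51d, 0.055 for Rad52, 0.0081 for Mre11a, 0.044 for Rad51c, 0.12 for Xrcc2 and 0.084 for Blm. In PRL against N they were 0.086 with median ratio scaling and 0.065 with quantile normalization for Nbn, and 0.024 with quantile normalization for Rad51d. In P against N they were −0.010 and −0.046 for Nbn, and in N against ESC 0.0086 and 0.015 for Rad51c, in the same order of settings. Without 1 library, log2 fold changes in N against ESC ran from −0.135 to 0.11 for Rad51c, −0.47 to 0.62 for Fancl, −0.025 to 0.13 for Rad51b and −0.18 to 0.19 for Xrcc3. In P against N they ran from −0.057 to 0.098 for Nbn and −0.11 to 0.016 for Rad51d. In PRL against P they ran from −0.060 to 0.19 for Fancf, and in PRL against N from −0.22 to 0.0049 for Nbn and −0.012 to 0.050 for Fance. With 2 libraries a group, and 6 to 13 fragments behind Neil3 and Exo1 in PRL, differences among the lowest values are the least firm.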
